A study of Mus musculus with 8 samples.

Results

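Glutamate receptors and the scaffold proteins beneath them were described in whole cortex from mice whose genotype label is Mef2c heterozygous and from mice labelled wild type. Mef2c codes for a transcription factor that neurons and microglia use. The genes were chosen by symbol and not by their values: the ionotropic receptor subunits Gria1 to Gria4, Grik1 to Grik5, the Grin and Grid genes, the metabotropic receptors of the Grm family, the scaffold families Dlg1 to Dlg4, Dlgap1 to Dlgap4, Shank1 to Shank3 and Homer1 to Homer3, and the kinase subunits Camk2a, Camk2b, Camk2d and Camk2g. Of the 22000 genes listed, 44 matched, and 42 had 10 or more reads in 4 or more libraries. The other 2 were Grin3b, with 2 to 15 reads per library, and Grm6, with 0 to 1.

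Messenger RNA was sequenced from the whole cortex of 8 mice, 1 library each, as a test of what reduced MEF2C function does to cortical transcripts. In each genotype 2 mice were male and 2 female; the sources used here do not give strain, age or the allele behind the label. Heterozygous replicates 1 and 3 and wild type replicates 2 and 3 were male. The animal numbers in the titles fall into a lower and a higher stretch, called the first and second run here, each with 1 animal of each sex and genotype, and the labels do not say what the runs are.

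Glutamate is the main excitatory transmitter of the cortex. AMPA receptors carry most of the fast current, NMDA receptors admit calcium when glutamate and depolarisation coincide, kainate receptors modulate release and excitability, and metabotropic receptors act through G proteins. In the postsynaptic density, Dlg proteins of the PSD-95 family hold receptors at the membrane, Dlgap proteins join them to Shank, and Homer joins Shank to group I metabotropic receptors, while CaMKII answers the calcium signal.

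Total counts lay between 16092773 and 17841377 per library, of which the 42 genes took 1.5% to 1.6%. The level of Mef2c itself was higher under the heterozygous label (1304 ± 73.2 CPM against 995 ± 41.3 CPM, SD, n = 4). Counts for a whole gene cannot check that label, because the altered part of the gene is not given. Directions below refer to the libraries as labelled. CPM is the count scaled to a common library total. Among the markers of excitatory neurons, the vesicular glutamate transporter gene Slc17a7 had 1932 ± 95.8 and 1854 ± 70.3 CPM in the genotypes (heterozygous first, SD, n = 4). That level does not show whether neighbouring brain regions were left out of the cortex samples. In whole tissue, fewer cells of a type and less RNA per cell cannot be told apart.

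Levels of different genes were compared as CPM per kb of annotated exon, averaged over all 8 libraries. Camk2a, the alpha subunit of CaMKII, was far above all others at 625.7 ± 29.5 CPM per kb (SD, n = 8). The next highest were Dlgap3 (119.8 CPM per kb), Camk2b (92.7) and Shank1 (78.2). Of the 42 genes, 9 lay at 50 CPM per kb or more and 10 under 5.

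Within the receptor classes the levels were uneven. Among AMPA subunits Gria1 (59.1 CPM per kb) and Gria2 (48.7), whose edited product limits calcium entry, were above Gria3 (34.3) and Gria4 (19.6). Among NMDA subunits the obligatory Grin1 had 71.3 CPM per kb, followed by Grin2b (16.9), Grin2a (15.6), Grin2c (10.7), Grin3a (3.72) and Grin2d (3.36). Grin2b and Grin2a overlapped in their ranges over the libraries (15.1 to 18.0 and 14.7 to 17.9). Among kainate subunits Grik5 led with 61.8 CPM per kb, ahead of Grik3 (12.3). Among metabotropic receptors Grm3 (19.3), a receptor found on astrocytes as well as neurons, and Grm5 (18.7), the main group I receptor of the forebrain, were highest and overlapped in range (16.4 to 22.5 and 17.3 to 20.1). Dlg4, the gene of PSD-95, led its family with 65.5 CPM per kb, and Homer1 led the Homer family with 26.6. Such levels depend on the exon length annotated, which counts every annotated untranslated region in full.

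**Figure D1:**
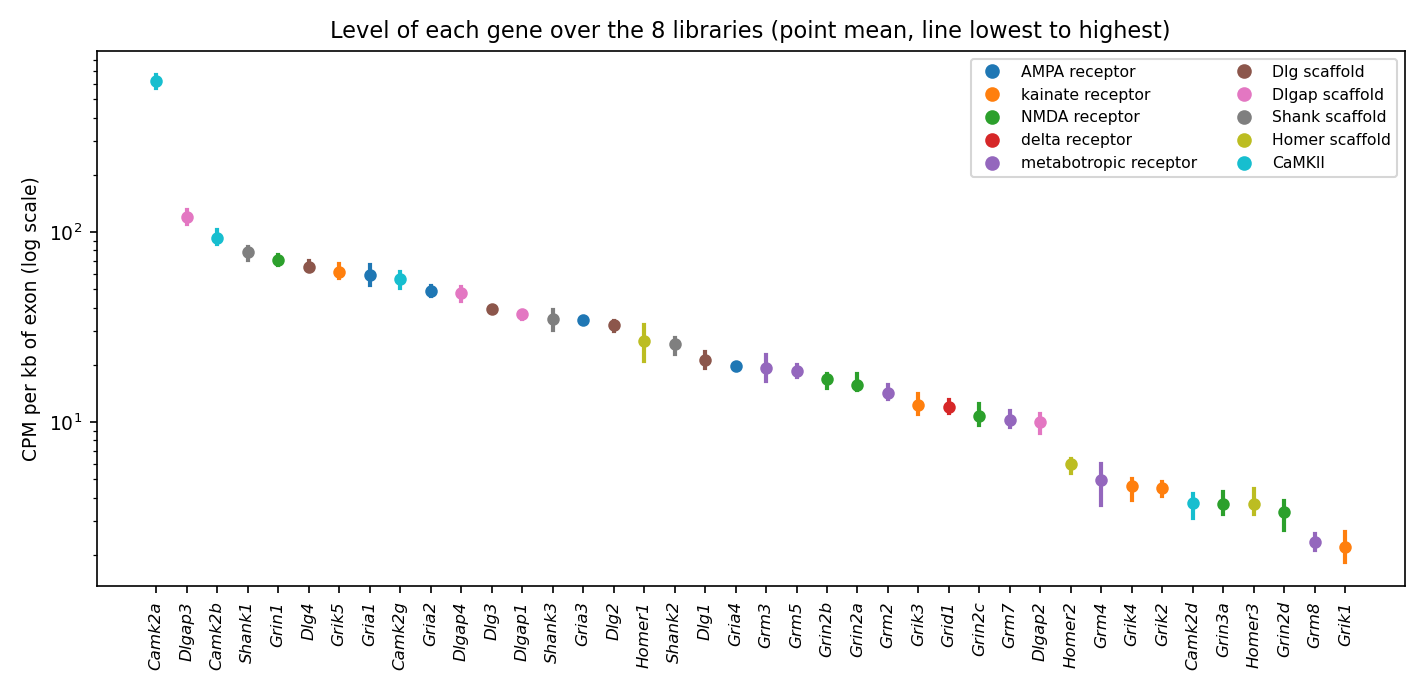
Level of 40 of the 42 genes in CPM per kb of exon (log axis), ordered from highest to lowest; the point is the mean over 8 libraries, the line runs from the lowest to the highest library, and colours mark the families. Camk2a stands apart at 625.7, and the longest lines on the log axis are those of Grm4 and Homer1.

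The genotype comparison asked which of these transcripts differ with the Mef2c label. Gria1, the subunit of AMPA receptors that is inserted during synaptic potentiation, rose by 0.22 on the log2 scale, and the other 41 genes did not pass. Thus 1 of 42 was called, against 37 of all 13879 genes tested (0.267%), of which 18 were higher (0.13%) and 19 lower (0.137%). A call means that edgeR's quasi-likelihood fit with sex as a term gave an adjusted p under 0.05 (Benjamini-Hochberg, over every gene tested). At an unadjusted p under 0.05, 1 of the 42 was higher and 3 were lower, against 7.24% of all genes. The genotypes did not overlap in 3 of the 42, 1 higher and 2 lower, against 4.55% of all genes, 2.16% higher and 2.38% lower. The median log2 fold change was -0.03 over the 42 and -0.001 over all genes.

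Most of the 42 genes were pinned down closely. The fitted log2 fold change was under 0.1 in size for 34 of them, against 7472 of the 9865 genes with a mean of at least 10 CPM. Its median size was 0.059 over the 42 and 0.054 over those genes. By that median the 42 were not closer to no difference, although their share under 0.1 was larger. The 95% interval lay within 0.32 of 0 on the log2 scale for 40 of the 42. The half-width of that interval had a median of 0.12 on the log2 scale and ran from 0.0864 to 0.38. The 2 genes whose intervals reached further were Grm3 (-0.36 to -0.03) and Homer1 (-0.56 to 0.21). The within-genotype coefficient of variation had a median of 6.36% over the 42 and of 6.97% over the 9865 genes with a mean of at least 10 CPM. It was lowest for Gria4 (1.84%) and highest for Grm4 (16.04%) and Homer1 (15.2%). Counting error alone would give 4.46% for Grm4 and 1.36% for Homer1.

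**Figure D2:**
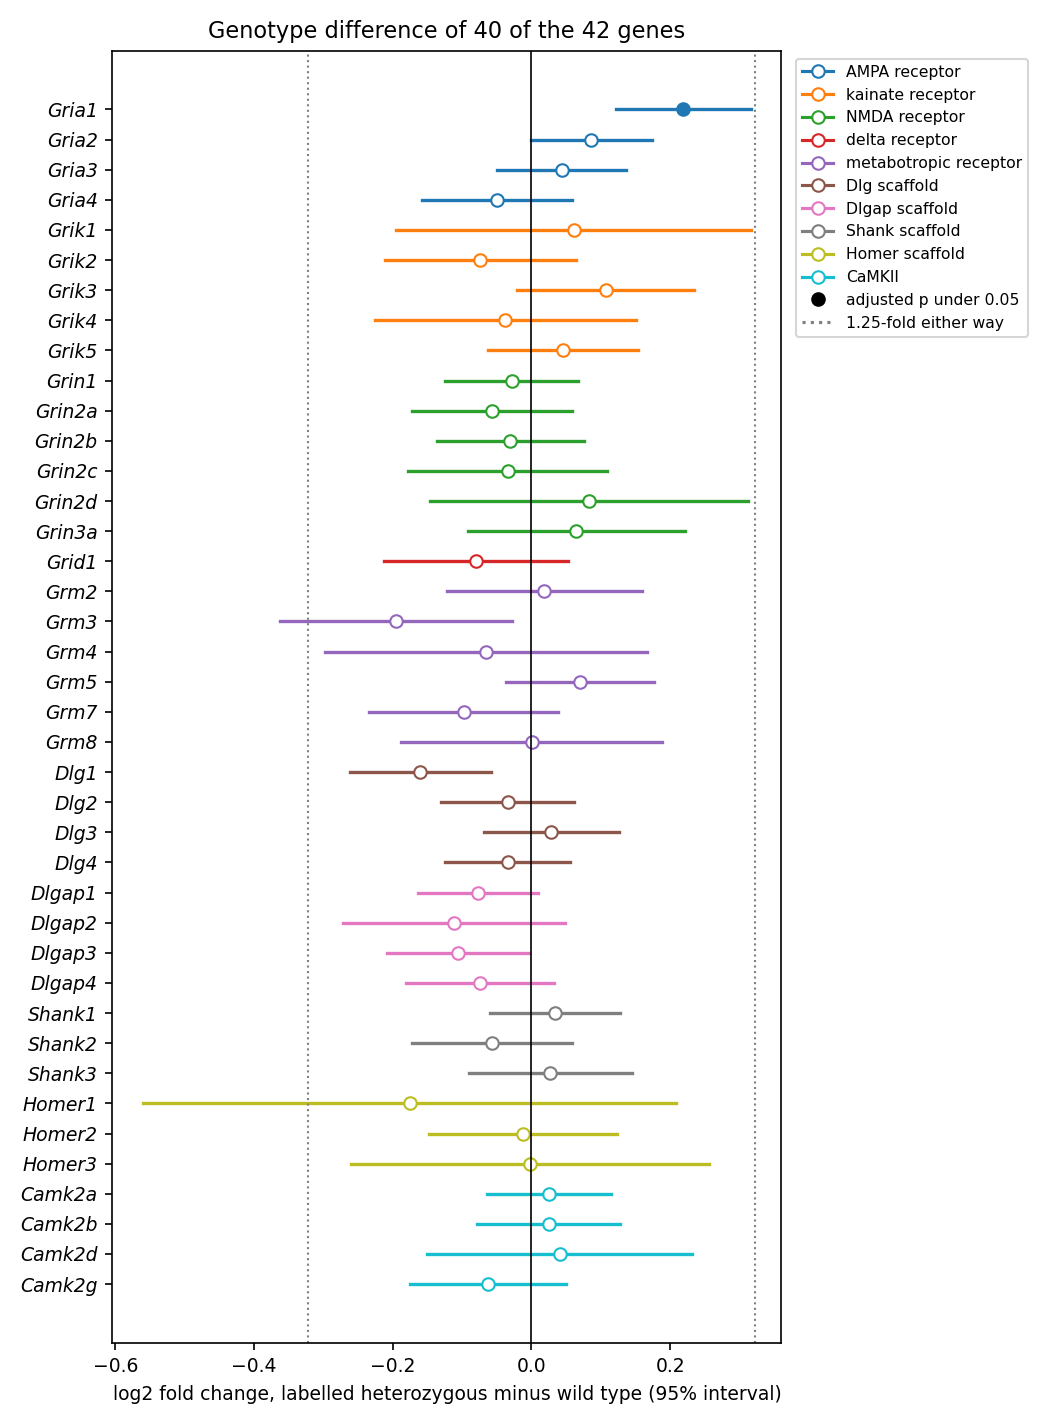
Log2 fold change (labelled heterozygous minus wild type) of 40 of the 42 genes with the 95% interval from edgeR's quasi-likelihood fit, n = 4 libraries a genotype; a filled point marks an adjusted p under 0.05 and dotted lines mark 0.32 either side of 0. Gria1 is the 1 filled point, and the intervals of Grm3 and Homer1 are those that cross a dotted line.

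Gria1 (ENSMUSG00000020524.16) is found on chromosome 11, plus strand, between 57011387 and 57330244 of build GRCm38. Its levels were 373, 383, 407 and 374 CPM in replicates 1 to 4 labelled heterozygous, and 341, 316, 337 and 326 CPM in replicates 1 to 4 labelled wild type. Every library labelled heterozygous was above every library labelled wild type. The log2 fold change was 0.22 ± 0.05 (SE), 1.16-fold, with an adjusted p of 0.0454 (edgeR, Benjamini-Hochberg).

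The size of the Gria1 difference was steady but its call was not. The log2 fold change was 0.20 among mice of the first run and 0.23 among those of the second, and 0.25 in males and 0.18 in females. With each library left out in turn it ran from 0.19 to 0.24. The call held in 1 of these 8 fits and was lost without heterozygous replicate 2, 3 or 4 or any wild type replicate, with adjusted p between 0.0282 and 0.222 over the 8 fits (edgeR, Benjamini-Hochberg).

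Hippocampal neurons also express Gria1, and 2 of their marker genes were called in the same direction. These markers were listed with earlier results of these data known, so calls among them are not independent of that choice. Of 9 such markers 8 were tested, and 6 had a log2 fold change above 0, with a median of 0.17. Wfs1 and Fibcd1 were called higher (0.44 and 0.77), while Npnt had -0.70 and did not pass. The summed level of the 8 tested markers was 283, 340, 326 and 327 CPM in replicates 1 to 4 labelled heterozygous. It was 269.6 to 279 CPM in those labelled wild type. Wfs1, a called gene, made up much of that sum, with 133 to 170 CPM against 105 to 119 CPM. With each marker weighted equally, as the mean of log2 levels centred per gene, the genotypes overlapped (-0.16 to 0.24 against -0.23 to 0.06). Of 8 fixed markers of striatal medium spiny neurons, 7 were tested and all 7 were above 0 (median 0.22), with summed levels of 271 to 379 CPM against 266 to 318 CPM. Of 8 excitatory neuron markers 6 were above 0 (median 0.10), and their summed levels were 3439 to 3681 CPM against 3305 to 3549 CPM. The part of these differences in the Gria1 result was not tested.

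The other AMPA subunits were closer to no difference. Gria2 had 781, 786, 808 and 747 CPM in the libraries labelled heterozygous and 754, 740.05, 716 and 729 CPM in those labelled wild type. All but heterozygous replicate 4 lay above the wild type range. The log2 fold change was 0.09 ± 0.04 (SE) and the adjusted p was 0.698 (edgeR, Benjamini-Hochberg). Gria3 had 0.04 and Gria4 had -0.05, with 95% intervals from -0.05 to 0.14 and from -0.16 to 0.06.

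The balance of Gria1 to Gria2, which needs no library scaling, was compared as the log2 ratio of their read counts. It was -1.07, -1.04, -0.990 and -0.997 in replicates 1 to 4 labelled heterozygous, and -1.15, -1.23, -1.09 and -1.16 in replicates 1 to 4 labelled wild type. The genotypes did not overlap, although the lowest heterozygous and the highest wild type value were close. The means differed by 0.13, with a two-sided exact permutation p of 0.0286, the smallest that 4 against 4 libraries allow. Adjusted over the 3 ratios examined, that exact p became 0.0857 and did not pass. With only this ratio at the smallest p, no adjusted value under 0.05 was possible, whatever the size of the difference. The adjusted value therefore cannot decide whether this ratio differs.

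The other 2 ratios showed overlapping genotypes. The log2 ratio of Grin2b to Grin2a, NMDA subunits whose balance shifts as the cortex matures, was 0.59 ± 0.0949 in the libraries labelled heterozygous and 0.57 ± 0.0881 in those labelled wild type (SD, n = 4; two-sided exact permutation p = 0.743, adjusted over the 3 ratios 1). The log2 ratio of Camk2a to Camk2b, the subunits whose mix sets how CaMKII responds to calcium and binds actin, was 2.47 ± 0.132 and 2.46 ± 0.144 (SD, n = 4; exact p = 1, adjusted 1).

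**Figure D3:**
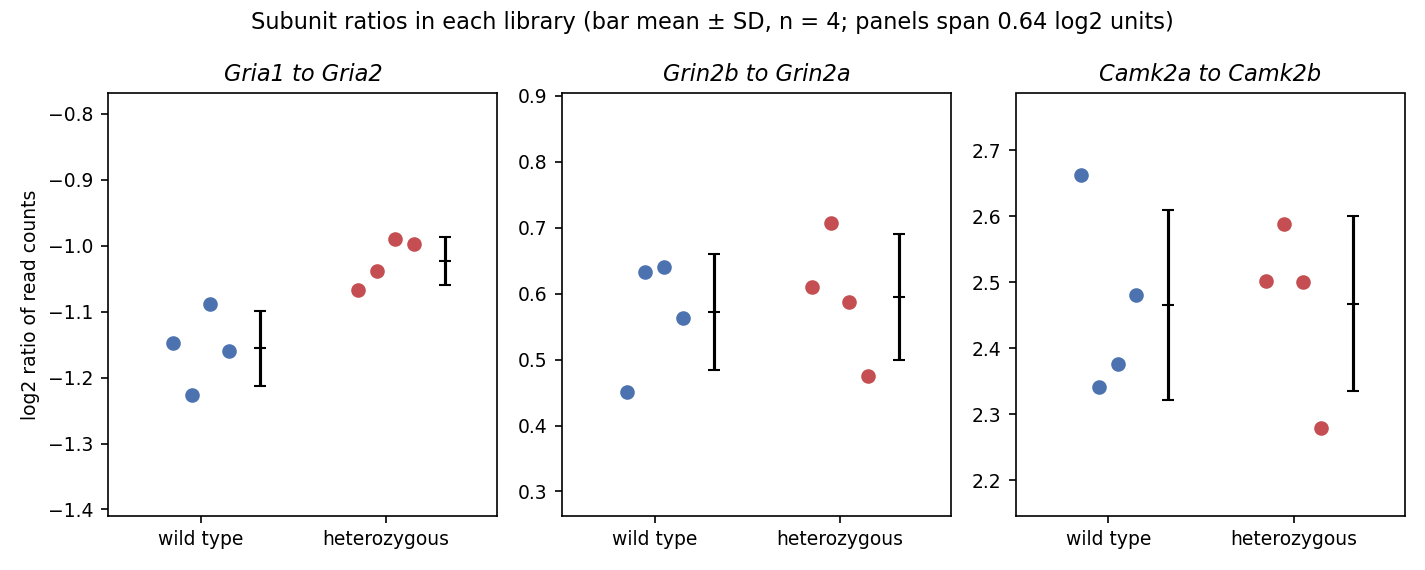
Log2 ratio of read counts in each library for 3 pairs of subunits, with mean ± SD (n = 4) beside the points; the panels have different centres and the same span. Gria1 to Gria2 separates the genotypes (-1.07 and above against -1.09 and below), and the other pairs overlap.

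The NMDA and kainate receptor subunits did not pass in either direction. Of the 6 NMDA subunits, 2 had a log2 fold change above 0 and 4 below, from -0.06 for Grin2a to 0.08 for Grin2d. Grin1, present in every NMDA receptor, had 693, 652, 717 and 679 CPM in the libraries labelled heterozygous and 718, 651, 730.5 and 694 CPM in those labelled wild type, which overlapped throughout. Grin2b had 416 ± 31.1 CPM against 424 ± 14.8 CPM (SD, n = 4). Of the 5 kainate subunits, 3 were above 0. Grik1, Grik2, Grik4 and Grik5 had log2 fold changes of 0.06, -0.07, -0.04 and 0.05. Grik3 had the largest difference among them, at 126, 112, 108 and 114 CPM against 99.1, 111, 104 and 113 CPM. Heterozygous replicate 1 was the highest library and the genotypes overlapped (log2 fold change 0.11 ± 0.06 SE, adjusted p 0.795 by edgeR's quasi-likelihood fit). Grid1, a delta receptor subunit that binds cerebellins at the synapse, had -0.08.

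Of the metabotropic receptors with enough reads, 0 were called. Grm3 had 60.8, 50.1, 50.6 and 58.1 CPM in the libraries labelled heterozygous and 56.1, 59.0, 68.7 and 67.9 CPM in those labelled wild type. Heterozygous replicates 2 and 3 lay below all wild type libraries and wild type replicates 3 and 4 above all heterozygous ones, so the ranges overlapped in the middle. Its log2 fold change of -0.20 ± 0.08 (SE) had an unadjusted p of 0.024 and an adjusted p of 0.553 by edgeR's quasi-likelihood fit, and was -0.06 in the first run and -0.33 in the second. Grm7, a presynaptic receptor, had 58.8, 60.7, 57.8 and 56.3 CPM against 66.6, 61.6, 55.4 and 66.9 CPM, with 1 wild type library below all heterozygous ones (log2 fold change -0.10). Grm5, which couples to phospholipase C and binds Homer, had a log2 fold change of 0.07 ± 0.05 (SE). Grm2 and Grm8 had 0.02 and 0.0004, and Grm4 had -0.07.

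Of the 14 scaffold genes 11 had a log2 fold change below 0, or 10 with upper-quartile scaling, against 7002 of all 13879 genes, and none passed. Their median log2 fold change was -0.05, against -0.001 over all genes. In 2 of the 14, both lower, the genotypes did not overlap, against 2.38% of all genes that were lower without overlap.

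Dlg1, which codes for SAP97, a scaffold known to bind the GluA1 tail, had the second smallest p of the 42 genes. Its levels were 219, 221, 211 and 207 CPM in replicates 1 to 4 labelled heterozygous, and 252, 239, 238 and 230.3 CPM in replicates 1 to 4 labelled wild type. All 4 libraries labelled heterozygous were below all 4 labelled wild type. The log2 fold change was -0.16 ± 0.05 (SE); its unadjusted p was 0.00348 and its adjusted p 0.251 (edgeR, Benjamini-Hochberg), so it did not pass. It was -0.16 in both runs, -0.15 in males and -0.17 in females, and between -0.18 and -0.13 with each library left out. Dlg2, Dlg3 and Dlg4 had -0.03, 0.03 and -0.03, each with a 95% interval that includes 0.

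The promoter windows of the genes were searched for the consensus motif of MEF2 proteins on both strands, since Mef2c codes for such a protein. RefSeq windows of build GRCm38.p6, from 250 bases before to 50 after a start, were at hand for 26 of the 42 genes, 40 windows in all, and Gria1 was not among them. Of the 40, 2 held a match (5%), 1 of 4 windows of Dlg1 and 1 of 3 of Dlg2, against 3.19% of all 32851 windows. Both windows, which belong to starts inside the genes and lie on the plus strand, are shown because they are the matches among these genes and one is that of Dlg1; capitals mark the match. The Dlg1 window is chr16:31754100-31754399, with the match from -106 to -97 relative to the start base, and the Dlg2 window is chr7:91090536-91090835, with the match from 9 to 18 bases past it. A match describes the letters and is not a bound site.
Dlg1: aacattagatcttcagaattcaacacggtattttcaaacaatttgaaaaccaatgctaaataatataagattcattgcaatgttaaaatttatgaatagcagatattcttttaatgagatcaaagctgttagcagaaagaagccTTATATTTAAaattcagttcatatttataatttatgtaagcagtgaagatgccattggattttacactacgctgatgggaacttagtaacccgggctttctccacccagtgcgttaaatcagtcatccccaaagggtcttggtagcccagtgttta
Dlg2: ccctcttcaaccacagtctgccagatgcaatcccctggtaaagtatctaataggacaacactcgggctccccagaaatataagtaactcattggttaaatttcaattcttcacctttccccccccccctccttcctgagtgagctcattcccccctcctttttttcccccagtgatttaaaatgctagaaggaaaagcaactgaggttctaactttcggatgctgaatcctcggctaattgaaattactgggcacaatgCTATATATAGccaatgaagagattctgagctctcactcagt

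All 4 Dlgap genes, whose products link PSD-95 to Shank, had a log2 fold change below 0 under each of the 3 scalings used, from -0.11 to -0.07, and none passed. Dlgap3, known in mice from compulsive grooming after its loss, had 496, 566, 521 and 503 CPM against 589, 528, 584 and 544 CPM. Heterozygous replicate 2 lay within the wild type range and the other 3 below it (log2 fold change -0.11 ± 0.05 SE, unadjusted p 0.0436, adjusted p 0.657 by edgeR's quasi-likelihood fit). Dlgap1 had 658, 625, 658 and 624 CPM against 685, 681, 662 and 676 CPM. Its genotypes did not overlap, but the gap between them was small (log2 fold change -0.08 ± 0.04 SE, adjusted p 0.755 in the same test). Dlgap2 and Dlgap4 had -0.11 and -0.07.

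**Figure D4:**
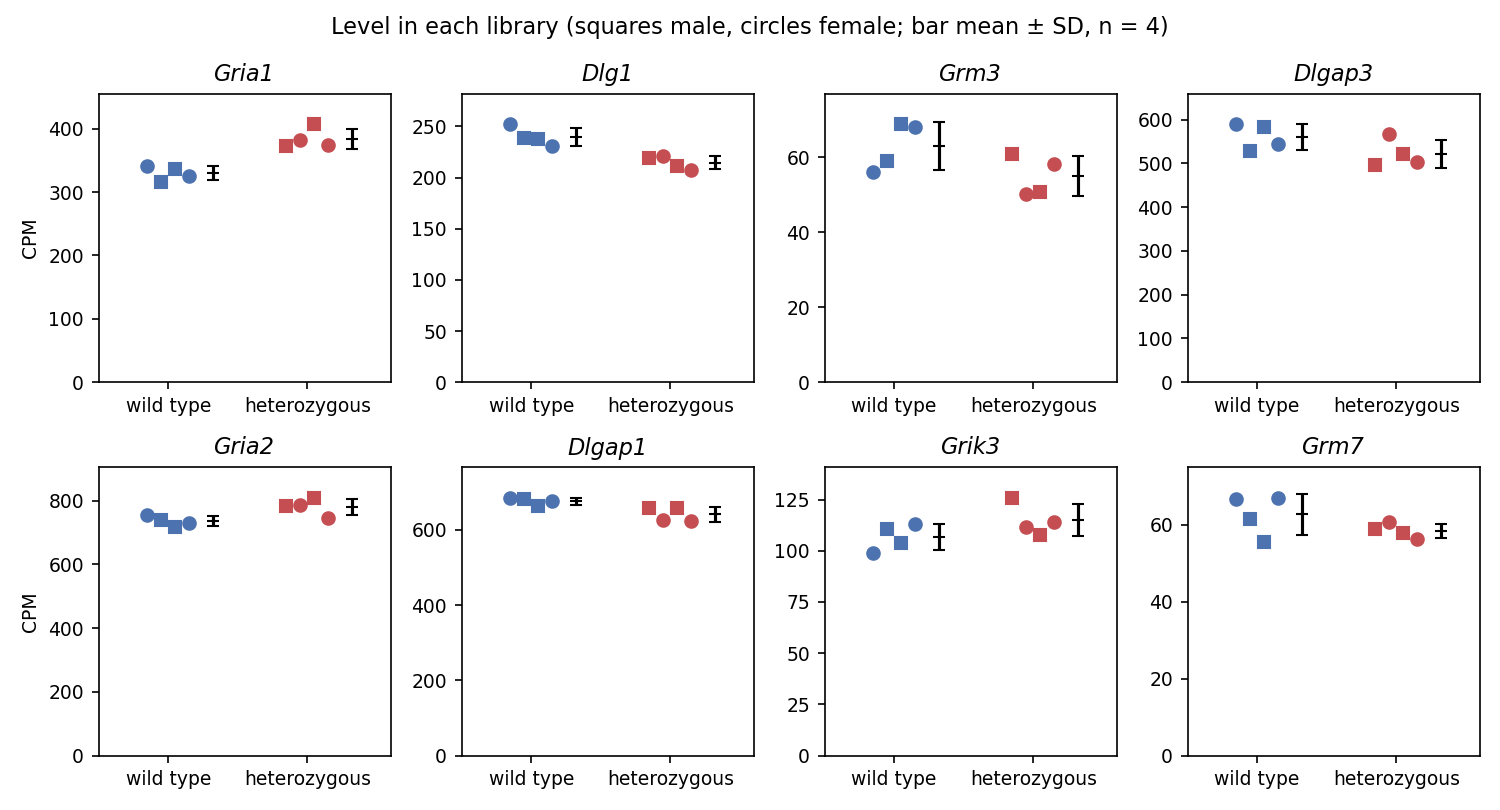
CPM in each library for the 8 of the 42 genes with the smallest p in the genotype comparison, from axes that start at 0; squares are males, circles are females, and the black bar is the mean ± SD (n = 4). Gria1 (373 and above against 341 and below), Dlg1 (221 and below against 230.3 and above) and Dlgap1 separate the genotypes, and the other 5 overlap.

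The Shank genes, master scaffolds of the postsynaptic density, had log2 fold changes of 0.03 for Shank1, -0.06 for Shank2 and 0.03 for Shank3. Shank3, known for its link to autism in humans, had 321, 357, 308 and 314 CPM in the libraries labelled heterozygous and 338, 279, 335 and 322 CPM in those labelled wild type. The spread among the wild type libraries was wider than the difference of the means, and the 95% interval of the log2 fold change was -0.09 to 0.15.

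Homer1 codes for a scaffold whose short form is induced by neuronal activity and competes with the long form; counts summed over all exons cannot tell these forms apart. It is the 1 of the 42 genes on chromosome 13, where it lies from 93299635 to 93405129, on the same chromosome as Mef2c (83504034 to 83667080). Its levels were 288, 388, 269.5 and 250 CPM in replicates 1 to 4 labelled heterozygous, and 328, 335, 367 and 319 CPM in replicates 1 to 4 labelled wild type. Heterozygous replicates 1, 3 and 4 were below every wild type library, while heterozygous replicate 2 was the highest of all 8.

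With all libraries, the log2 fold change of Homer1 was -0.18 ± 0.15 (SE) and the adjusted p was 0.951 (edgeR, Benjamini-Hochberg). Without heterozygous replicate 2 it was -0.35 with an adjusted p of 0.00689, while the other 7 fits with a library left out gave no call and adjusted p up to 0.998. It was 0.01 in the first run, which holds that library, and -0.40 in the second. Heterozygous replicate 2 had the lowest level of Arc, another activity-induced gene, at 128 CPM, against 388, 236 and 293 CPM in the other libraries labelled heterozygous and 174 to 295 CPM in those labelled wild type. The RNA integrity number of that library was 8.6, the lowest value, shared with wild type replicate 3, which had the highest Homer1 of its genotype. The part of RNA integrity and of Arc in the Homer1 levels was not tested. Homer2 and Homer3 had log2 fold changes of -0.01 and -0.002.

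**Figure D5:**
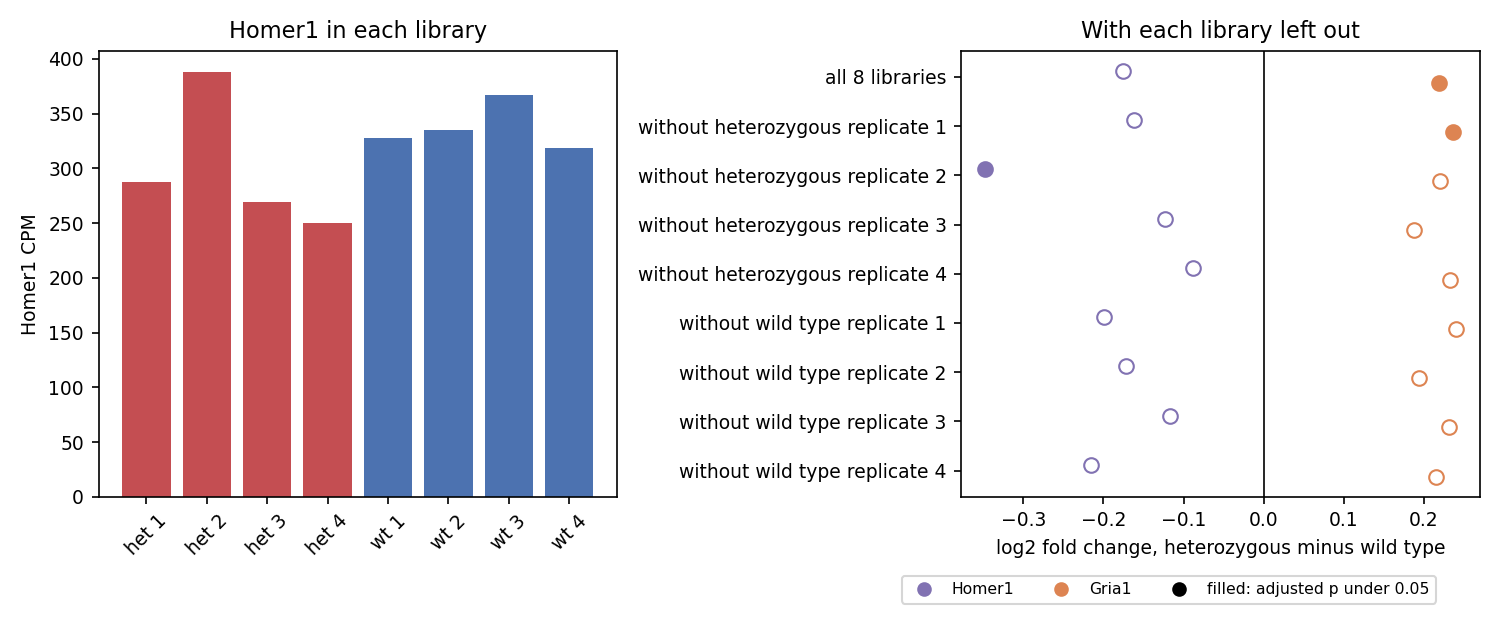
Left, CPM of Homer1 in each library (het, labelled heterozygous; wt, labelled wild type); right, log2 fold change of Homer1 and Gria1 in fits with all 8 libraries and with each left out, filled where the adjusted p was under 0.05. Homer1 reaches -0.35 without heterozygous replicate 2, and Gria1 stays between 0.19 and 0.24.

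The CaMKII subunit genes showed no call. Camk2a had 4777, 4874, 4671 and 4518 CPM in the libraries labelled heterozygous and 4993, 4276, 4633 and 4624 CPM in those labelled wild type. The highest and the lowest library were both wild type, and the 95% interval of the log2 fold change was -0.07 to 0.12. Camk2b, Camk2d and Camk2g had log2 fold changes of 0.02, 0.04 and -0.06.

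Other genes of the same synapses were read from 5 lists, and 0 of their 98 tested genes were called by edgeR's quasi-likelihood test. At an unadjusted p under 0.05, 10 were higher and 3 lower, against 3.54% and 3.7% of all genes. Limma-voom also called 0, while the DESeq2 Wald test called 2, Cnih3 and Nos1.

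Of the 21 auxiliary subunits of AMPA and kainate receptors, 5 were higher and 1 lower at an unadjusted p under 0.05, with a median log2 fold change of 0.02. Cnih3, a cornichon that slows AMPA receptor closing, had 81.6, 89.4, 87.7 and 90.8 CPM in the libraries labelled heterozygous and 71.7, 69.3, 75.4 and 76.4 CPM in those labelled wild type. Its genotypes did not overlap, and its log2 fold change of 0.26 ± 0.06 (SE) had an adjusted p of 0.0711 by edgeR's quasi-likelihood fit, and of 0.0327 with the run of animal numbers as a further term. Shisa6, which keeps AMPA receptors from desensitising, had 18.9, 23.7, 21.9 and 22.2 CPM against 16.1, 14.5, 18.0 and 18.2 CPM. These too did not overlap (log2 fold change 0.37 ± 0.10 SE, adjusted p 0.159 in the same test).

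Among 26 tested genes of other scaffolds and signalling proteins, 2 were higher at an unadjusted p under 0.05. Nos1, the neuronal nitric oxide synthase that binds PSD-95, had 48.7, 63.3, 56.1 and 56.7 CPM against 32.1, 45.4, 34.9 and 49.6 CPM, with 1 wild type library inside the heterozygous range (log2 fold change 0.47 ± 0.14 SE). Anks1b had a log2 fold change of 0.10. Among 23 adhesion proteins and organisers, 1 was higher, Cbln2 (0.21), a secreted partner of delta receptors and neurexins, and Lrrc4 came next with -0.10.

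Of 19 genes of calmodulin, CaMKII regulators, kinases and phosphatases, 2 were higher at an unadjusted p under 0.05. Camkk1, a kinase that activates other CaM kinases, had a log2 fold change of 0.17.

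Of 9 genes of glutamate transport and metabolism, 2 were lower at an unadjusted p under 0.05, both without overlap. Glul, the glutamine synthetase of astrocytes, had 1651, 1579, 1735 and 1769 CPM against 1965, 1817, 1794 and 1858 CPM. Its log2 fold change was -0.14 ± 0.04 (SE) and the adjusted p was 0.269 by edgeR's quasi-likelihood fit. Slc17a8, the vesicular transporter VGLUT3, had 2.76 ± 0.763 CPM against 4.56 ± 0.624 CPM (SD, n = 4; log2 fold change -0.73). Astrocyte markers had 6 of 7 below 0 with a median of -0.02. The other, Gfap, had the largest change of the list, 0.36, and was higher without overlap (adjusted p 0.57 by edgeR's quasi-likelihood fit). The summed levels of these markers were 1727 to 1856 CPM against 1799 to 1848 CPM, and their part in the Glul level was not tested.

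The sexes did not differ detectably in these genes. None of the 42 was called between males and females, against 4 of 13879 genes (0.0288%), and 0 had an unadjusted p under 0.05, against 2.92% of all genes. For the interaction of genotype and sex, 0 of the 42 and 0 of all genes (0%) were called, and 0 of the 42 had an unadjusted p under 0.05, against 2.64%. The DESeq2 Wald test and limma-voom also called 0 of the 42 in both comparisons. The interaction rests on 2 mice per sex and genotype.

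The runs of animal numbers were compared with sex and genotype as terms. Of all genes 53 were called (0.382%), but 0 of the 42 by edgeR's quasi-likelihood test, the DESeq2 Wald test or limma-voom, and 2 had an unadjusted p under 0.05, against 10.2% of all genes. Camk2d, a CaMKII subunit also common in heart and glia, was higher in the second run (log2 fold change 0.23, adjusted p 0.114 by edgeR's quasi-likelihood fit), and Shank2 was lower (-0.12, adjusted p 0.378). All 6 endothelial markers were lower in the second run, with a median of -0.44; their part in these differences was not tested. The genotype log2 fold change had the same sign in both runs for 23 of the 42 genes and in both sexes for 27. With no genotype difference, signs would agree about as often as not, and the share over all genes was not computed.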

How the data were processed

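Polyadenylated RNA of whole cortex was sequenced from 8 mice. The values the authors deposited are raw counts for each gene symbol. STAR 2.5.2b, HTSeq and build mm10 are named in the submitters' processing notes; annotation, strandedness and filters were not given in the sources used here. Of the 42 genes, 13 overlap an exon on the opposite strand and 7 one on the same strand, with Gria2, Gria3 and Gria4 among the 7. As strandedness is unknown, counts of the 13 may include or lose reads through the partner. Counts of the 7 may be affected in either case. Gria1, Dlg1 and Homer1 have no such overlap on either strand.

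All further steps were computed from these counts. Genes passing edgeR's filterByExpr by genotype (minimum count 10) were kept, 13879 genes with 99.95% of reads, and scaled by TMM. All 42 genes passed. Genotypes were compared with a robust quasi-likelihood F-test in edgeR 4.0.16 (R 4.3.3) with sex and genotype as terms, and Benjamini-Hochberg adjustment over all genes, called under 0.05. Standard errors are the log2 fold change over the square root of F. Values for one run or one sex are differences of mean log2 CPM with no test. Gene identifiers, coordinates and exon lengths come from GENCODE M21 (GRCm38). Alternatives used DESeq2 1.42.0 and limma 3.58.1. On simulated counts of the heterozygous against wild type comparison, run on 13879 genes with 50 changed at each size, 44% of genes changed 1.25-fold and 68% of those changed 1.5-fold were recovered, with 14 false calls.

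The rule named every one of the 42 genes, with the value in each library for the called gene and at least the 8 genes of smallest p; of each pathway list it named the 2 genes of smallest p. Results of 3 genes it named are not reported here. Homer1, Grin1, Shank3 and Camk2a, also given by library, were chosen after their values were seen, as was the motif search. The genes and lists were chosen with earlier results of these data known. The labels call the libraries separate mice; no pair within a genotype agreed within sampling noise (lowest chi-square per degree of freedom 4.14). Intervals cover the spread between these libraries.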

Additional observations from a re-analysis of the deposited data

Results flagged for a closer look

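In 3 of 106 groups of 4 libraries 1 library stood far from the other 3, with a gap to its nearest neighbour above Dixon's 95% critical value for 4 samples; chance alone gives about 1 in 20. For Dlg4 heterozygous replicate 2 was at 928 CPM against 829 to 839 CPM in the other 3 (0.898 of the range). For Grik5 the same library was at 348 CPM against 313 to 318 CPM (0.848). For Grik1 wild type replicate 3 was at 12.3 CPM against 14.9 to 15.3 CPM (0.862). For Homer1, heterozygous replicate 2 did not reach that critical value.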

How the results depend on the processing

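Gria1 kept its call under DESeq2 size factors, upper-quartile scaling, both other filters, the DESeq2 Wald test, limma-voom and both other sets of terms, and lost it in 7 of the 8 fits with a library left out, so the count of called genes among the 42 ran from 0 to 1 there. The count over all genes was 82 with no filter, 80 with the DESeq2 Wald test, 72 with the run of animal numbers as a term, 72 at an adjusted p under 0.1, and 19 to 80 with each library left out; the cause was not tested. Of the pathway lists, 2 genes were called with no filter, Cnih3 among them, 2 by the DESeq2 Wald test (Cnih3 and Nos1), 1 with the run as a term (Cnih3), 1 at an adjusted p under 0.1, and 0 to 2 with each library left out. The difference in the log2 ratio of Grin2b to Grin2a was 0.116 in the first run and -0.0707 in the second.

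The sign of the log2 fold change was kept in every fit of all 8 libraries, and with any library left out, by 26 of the 42 genes. The 16 others did not keep their sign in every such fit. Not all of them lay near 0 with all libraries, as Grin2d had 0.08 ± 0.11 (SE). For 15 of them the ranges with each library left out were -0.0095 to 0.0611 for Camk2a, -0.0332 to 0.0594 for Camk2b, -0.0365 to 0.1267 for Camk2d, -0.0314 to 0.1518 for Grik1, -0.1073 to 0.0429 for Grik4, -0.0964 to 0.0098 for Grin2a, -0.0634 to 0.0168 for Grin2b, -0.0729 to 0.0197 for Grin2c, -0.0121 to 0.1706 for Grin2d, -0.0343 to 0.0711 for Grm2, -0.1621 to 0.0333 for Grm4, -0.0348 to 0.0398 for Grm8, -0.0683 to 0.0266 for Homer2, -0.0952 to 0.1029 for Homer3 and -0.0249 to 0.083 for Shank3. With all libraries, Homer3 had 0.001 under upper-quartile scaling, and Grm8 had -0.0004 with limma-voom and with genotype as the one term.

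The labels give no replicate numbers shared between the genotypes, but mice of one sex and run can be matched into 4 pairs. A paired fit with these pairs as a block, chosen after seeing the data, leaves 3 residual degrees of freedom. It called 124 of all genes, 1 of the 42, Gria1 (adjusted p 0.00342 by edgeR), and 3 of the pathway lists, Cnih3 and Nptx1 among them; Dlg1 had an adjusted p of 0.0605 there. The labels do not say that the runs pair the mice. The smallest change simulated was recovered in 44% of the genes given it. That share is a single value over all genes given the change, with no split by level or spread. It therefore cannot say how often such a change would be recovered in the 42 genes. The fitted changes of Dlg1 and Grm3, and that of the called Gria1, were smaller than the smallest change simulated.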
